A study of Mus musculus with 30 samples.

Results

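The genes described here are 10 members of the mouse major histocompatibility complex (MHC) antigen presentation pathways, taken by symbol from the 46113 genes of the deposited count tables. The class II side is represented by the chain genes H2-Aa, H2-Ab1 and H2-Eb1, the invariant chain gene Cd74, the peptide loading gene H2-DMa and the transactivator gene Ciita. The class I side is represented by the heavy chain genes H2-K1 and H2-D1, the light chain gene B2m and the transactivator gene Nlrc5. All 10 had exon reads in each of the 30 libraries, and all 10 passed the filter on low counts in every comparison.

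Each library came from 100 sorted bone marrow cells of C57BL/6 mice aged 8 to 10 weeks, and the haematopoietic stem cells (HSCs) were sorted as Lineage- EPCR+ CD150+ CD48- cells. The first experiment holds 4 libraries of HSCs from untreated mice, 4 from mice 6 days after 5-fluorouracil (5-FU, a drug that kills dividing cells) and 6 from mice 10 days after 5-FU. The second holds 4 libraries of HSCs from untreated mice kept in culture for 1 day and 4 of uncultured HSCs. The third holds 4 libraries of CD150+ CD48+ progenitors (CD48+ HPCs, also EPCR+ and Lineage-) and 4 of CD48- HSCs, both sorted 10 days after 5-FU. The 3 experiments have their own libraries, so a difference in level between experiments cannot be told apart from a difference between the experiments themselves.

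MHC class I molecules are made of a heavy chain and beta-2 microglobulin, are found on nearly all nucleated cells, and show peptides from proteins made inside the cell to CD8 T cells. Class II molecules are dimers of an alpha and a beta chain that show peptides from endocytosed material to CD4 T cells, and they are best known from B cells, dendritic cells and macrophages, although haematopoietic stem and progenitor cells can carry them too. NLRC5 and CIITA are related proteins that switch on the class I and class II genes through promoter boxes bound by RFX, CREB and NF-Y factors, and interferon gamma raises both.

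The promoter sequences show which of these boxes the members share. RefSeq (build GRCm38.p6) had a promoter entry for 6 of the 10 members, and the 200 bases before the start are printed for the 5 that held an NF-Y box. Capitals mark every match, on either strand, to ATTGG (the NF-Y or Y box), TGACG (a CREB site core, part of the X box), GCAACNG (an X box core), GAAA followed by GAAA with 2 bases between (an interferon response element) or TTTCACTT (a core of interferon factor sites).
H2-Aa, chr17:34287824-34288023, minus strand: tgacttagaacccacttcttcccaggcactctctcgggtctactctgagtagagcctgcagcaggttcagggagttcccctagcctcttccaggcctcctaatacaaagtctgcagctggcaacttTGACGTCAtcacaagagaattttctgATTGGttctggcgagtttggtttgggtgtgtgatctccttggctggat
H2-Eb1, chr17:34305667-34305866, plus strand: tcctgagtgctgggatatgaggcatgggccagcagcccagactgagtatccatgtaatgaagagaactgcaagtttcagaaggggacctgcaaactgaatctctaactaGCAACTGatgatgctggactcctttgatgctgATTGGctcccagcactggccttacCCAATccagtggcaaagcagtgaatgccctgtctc
H2-K1, chr17:34000348-34000547, minus strand: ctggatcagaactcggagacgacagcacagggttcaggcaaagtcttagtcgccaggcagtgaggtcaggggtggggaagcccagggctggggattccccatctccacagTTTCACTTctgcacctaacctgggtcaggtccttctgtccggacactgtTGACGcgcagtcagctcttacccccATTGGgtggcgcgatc
H2-D1, chr17:35262894-35263093, plus strand: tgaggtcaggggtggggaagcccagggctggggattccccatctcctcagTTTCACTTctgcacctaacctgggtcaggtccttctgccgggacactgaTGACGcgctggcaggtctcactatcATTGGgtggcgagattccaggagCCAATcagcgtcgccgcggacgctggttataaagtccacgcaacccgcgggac
B2m, chr2:122147487-122147686, plus strand: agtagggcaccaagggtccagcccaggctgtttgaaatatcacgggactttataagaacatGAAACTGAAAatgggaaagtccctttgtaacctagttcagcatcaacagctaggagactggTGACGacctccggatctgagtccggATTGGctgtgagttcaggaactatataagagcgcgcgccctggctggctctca
ATTGG was found in these 5 of 6 members over 250 bases, and in 33.9% of all 32851 promoters. TGACG was found in H2-Aa, H2-K1, H2-D1 and B2m, and in 17.8% of all promoters. The pair TGACG then ATTGG, 10 to 60 bases on and on the same strand, was found in those 4 members and in 1.17% of all promoters. In H2-K1, H2-D1 and B2m the first bases of the TGACG and the next ATTGG lay 25 bases apart in each. In H2-Aa, where TGACGTCA reads the same on both strands, they lay 26 and 23 bases apart. GCAACNG was found in H2-Eb1 alone among the 6 and in 10.2% of all promoters. The GAAA pair was found in B2m and in 2.98% of all promoters, while TTTCACTT was found in H2-K1 and H2-D1 and in 1.36% of all promoters. TTCNNNGAA, a STAT site, was found in 7.02% of all promoters and in 0 of the 6 members within this window. The motifs TGACG and TTTCACTT and the spacing were chosen after these sequences had been seen.

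Of the members, 6, namely H2-Aa, H2-Ab1, H2-Eb1, H2-DMa, H2-K1 and H2-D1, had more than 1 entry in the files, 1 on chromosome 17 (mm10) and the others on alternate loci, and reads were summed over entries. Reads that fit several copies were counted without being unique: the unique share of exon reads was 0% for H2-Aa, H2-Ab1, H2-Eb1 and H2-D1, 0.0893% for H2-DMa and 0.357% for H2-K1. It was 25.0% for B2m, 25.6% for Ciita and 100.0% for Cd74 and Nlrc5. The counts do not show whether reads that were not unique also fit the related H2-Q and H2-T genes. The split of reads between those genes, H2-K1 and H2-D1 is therefore uncertain. Exon reads per library ran from 20 to 690 for Ciita, from 21 to 752 for H2-Eb1 and from 8589 to 22468 for H2-K1, so the low members carry more counting error.

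Per length of transcript, in TPM (reads per exon length relative to the library), the class I genes stood far above the class II genes in HSCs of untreated mice. B2m had 4112 ± 257 TPM, H2-K1 3543 ± 140.1 TPM, H2-D1 1588 ± 77.9 TPM and Nlrc5 200.4 ± 8.08 TPM (SD, n = 4 each). The invariant chain gene Cd74 had 392 ± 75.6 TPM, H2-Aa 164 ± 44.0 TPM, H2-DMa 102 ± 7.49 TPM, H2-Ab1 98.0 ± 22.003 TPM, H2-Eb1 45.1 ± 19.1 TPM and Ciita 9.77 ± 3.62 TPM (SD, n = 4 each). Within class II, Cd74 stood first and Ciita last, and B2m, H2-K1 and H2-D1 were above every class II gene. The TPM of H2-DMa was summed over entries of unlike exon length, 6798 bases on chromosome 17 and 1658 bases on the alternate loci. Its place among the class II genes therefore depends on the annotation.

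Library totals were 5208722 to 12243208 exon reads, and all values below are CPM (reads relative to the library total) scaled by TMM unless TPM is named. Markers of other cells were not spread evenly over the libraries. The summed level of 12 macrophage and monocyte markers was 483.9 CPM in day 6 replicate 1, against 45.5 to 167 CPM in the other 3 day 6 libraries, and 1227 CPM in CD48+ HPC replicate 3, against 153 to 456 CPM in the other 3. In day 10 replicate 6 that sum was 110.2 CPM, while 17 interferon-induced genes summed to 8147 CPM, against 928 to 2161 CPM in the other 5 day 10 libraries. Granulocyte markers were high in untreated replicate 3 and uncultured replicates 1 and 4, and erythroid markers in CD48- HSC replicate 3. Both lists also differed between groups. The stem cell genes Hlf (404 CPM or more), Kit (490.0 CPM or more) and Slamf1 (11.3 CPM or more) were read in every library, but their levels differed between groups. Hlf averaged 1291 CPM in untreated and 469 CPM in day 6 HSCs, and Kit 1269 and 533 CPM. Of 9 stem cell markers 4 fell at day 6, and 3 fell and 2 rose at day 10 against untreated. Against day 6, 3 rose and 1 fell at day 10. In culture 8 fell and 1 rose, and in CD48+ HPCs 8 fell. Shares over all genes are given with each comparison below. Procr, which encodes EPCR, was at 16.4 to 20.1 CPM in cultured HSCs and at 39.6 CPM or more in each of the other groups. Cd48 was at 45.75 to 56.7 CPM in CD48+ HPCs and at 6.05 CPM or less in every HSC library. In bulk libraries such as these, fewer cells that carry a transcript and less transcript per cell cannot be told apart.

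At day 6 after 5-FU the class I heavy chain genes and the class II loading gene were lower than in untreated HSCs. With edgeR's quasi-likelihood test, 3 of the 10 members fell (H2-K1, H2-D1 and H2-DMa) and the other 7 did not pass, in a comparison in which 51.4% of 12886 tested genes were called and 25.7% of all tested genes were lower. The members' share was thus near the background.

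H2-K1, which encodes the K heavy chain of class I, had 1405, 1448, 1576 and 1319 CPM at day 6, against 2305, 2002, 2199 and 2206 CPM in untreated HSCs. All 4 day 6 libraries were below all 4 untreated ones. The log2 fold change was -0.60 (SE 0.12, edgeR adjusted p = 0.000768). H2-D1, the D heavy chain, had 694, 616, 674 and 578 CPM at day 6, against 871, 849, 917 and 917 CPM in untreated HSCs. Again the groups did not overlap, with a log2 fold change of -0.47 (SE 0.12, edgeR adjusted p = 0.00424). B2m, the light chain shared by class I molecules, had 959, 924, 1018 and 862 CPM at day 6, against 1099, 1118, 1204 and 1125 CPM in untreated HSCs. Although these groups did not overlap either, the change of -0.27 on the log2 scale (SE 0.18) did not pass the test (edgeR adjusted p = 0.212). Nlrc5, which drives transcription of class I genes, had 429, 374, 426 and 369.7 CPM at day 6, against 545, 478, 486 and 533 CPM in untreated HSCs. Its ranges did not overlap, and its log2 fold change of -0.35 (SE 0.31) did not pass (edgeR adjusted p = 0.361).

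On the class II side, H2-DMa, a subunit of the molecule that loads peptides onto class II, had 94.8, 48.4, 76.4 and 70.8 CPM at day 6, against 112, 114, 115 and 129 CPM in untreated HSCs. No library overlapped, and the log2 fold change was -0.70 (SE 0.21, edgeR adjusted p = 0.0119). In intron reads it was -0.43 and did not pass. The class II chain genes split by library instead of by group. H2-Aa, an alpha chain gene, had 53.8 CPM in day 6 replicate 1 and 10.4, 15.4 and 8.44 CPM in the other 3, against 45.6, 42.9, 62.9 and 74.6 CPM in untreated HSCs. Replicate 1 thus lay within the untreated range and the other 3 far below it, and the log2 fold change of -1.36 (SE 0.73) did not pass (edgeR adjusted p = 0.129). H2-Eb1, a beta chain gene, had 14.96 CPM in the same library and 4.52, 3.86 and 3.53 CPM in the other 3, against 22.9, 14.7, 20.4 and 39.3 CPM in untreated HSCs. Replicate 1 again lay just inside the untreated range, and the log2 fold change of -1.86 (SE 0.78) did not pass (edgeR adjusted p = 0.0575). H2-Ab1, the other beta chain gene, had 41.2, 14.1, 22.8 and 12.9 CPM at day 6, against 46.7, 29.95, 29.5 and 45.4 CPM in untreated HSCs, a log2 difference of -0.74 (SE 0.62).

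Cd74, whose product keeps class II chains free of peptide until they reach the endosome, had 251, 62.8, 78.2 and 53.1 CPM at day 6, against 193, 139.8, 160.3 and 225 CPM in untreated HSCs. Here replicate 1 exceeded every untreated library and the others were below all of them. Ciita, the switch for class II genes, had 19.1, 4.52, 6.15 and 3.68 CPM at day 6, against 27.0, 17.5, 15.4 and 35.2 CPM in untreated HSCs. Its log2 fold change of -1.51 (SE 0.85) did not pass (edgeR adjusted p = 0.149).

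Day 6 replicate 1 was also the library with the high macrophage markers: Csf1r was at 95.8 CPM there and at 1.45 to 10.4 CPM in the other 3, and Mrc1 at 81.0 CPM, against 6.03 to 21.0 CPM. Markers of cells rich in class II differed between the groups as well: 7 B cell markers summed to 17.8 to 20.98 CPM at day 6, against 26.4 to 71.1 CPM in untreated HSCs, and 7 dendritic cell markers to 17.01 to 39.2 CPM at day 6, against 38.5 to 70.1 CPM in untreated HSCs. Erythroid markers separated the groups most: all 8 fell, and they summed to 295 to 428 CPM at day 6, against 2413 to 6334 CPM in untreated HSCs. Granulocyte markers summed to 0.724 to 2.79 CPM at day 6, against 4.26 to 1927 CPM in untreated HSCs. The part of all these markers in the members' levels was not tested. Without day 6 replicate 1, 5 members fell, H2-Aa by 2.30 and H2-Eb1 by 2.62 on the log2 scale among them. With only the untreated and day 6 libraries in the fit, which leaves out the spread of the day 10 group, 8 members fell. Without 9 libraries that stood apart 9 fell. In each of these fits the count of all genes that were lower stayed within 1.5 times that of the main fit. Day 6 replicate 1 was the highest day 6 library in H2-Aa, H2-Ab1, H2-Eb1, Cd74, H2-DMa and Ciita, and it is among the 9. These 9, chosen after seeing marker and interferon-induced gene levels, were untreated replicate 3, day 6 replicate 1, day 10 replicates 3, 4 and 6, uncultured replicates 1 and 4, CD48- HSC replicate 3 and CD48+ HPC replicate 3.

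**Figure D1:**
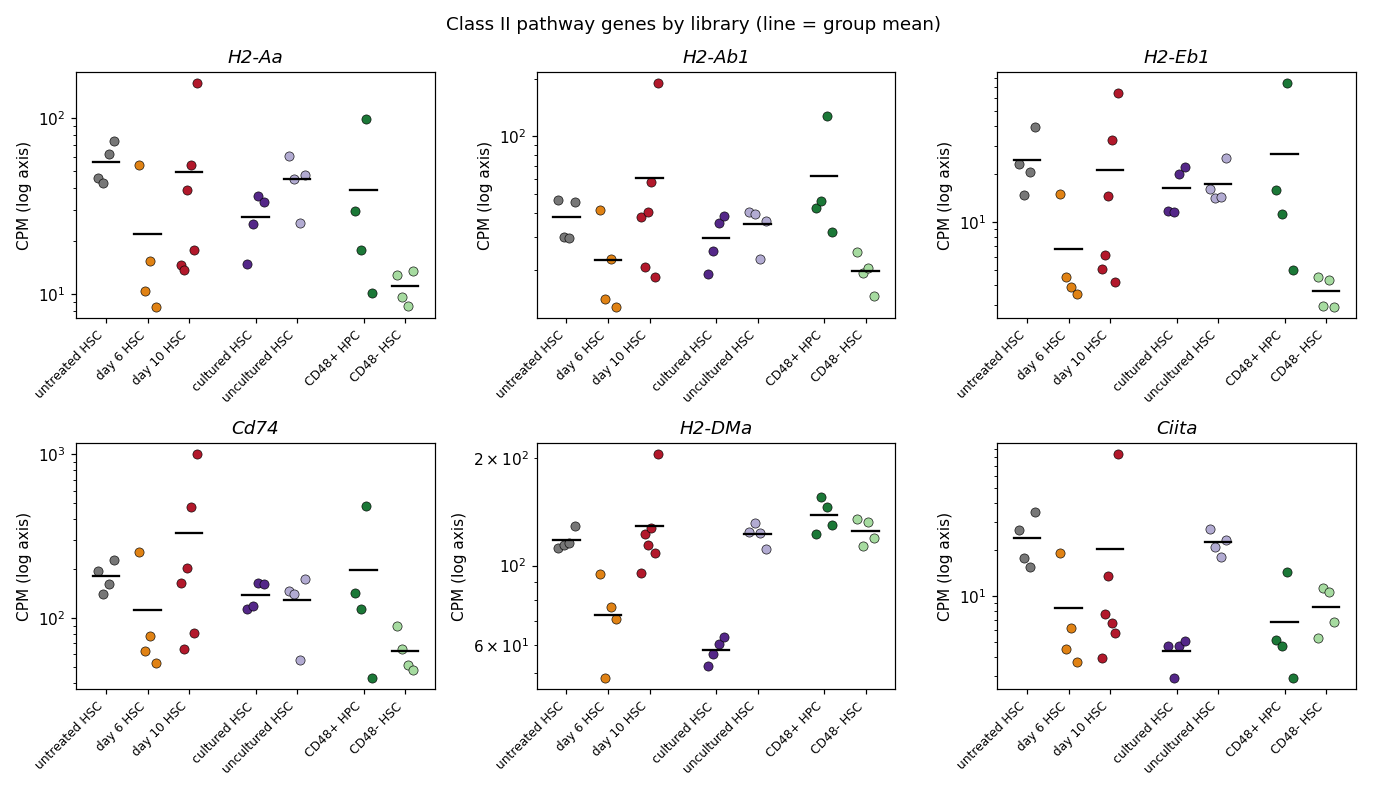
Each point is a library and each line a group mean for 6 class II pathway genes, in CPM on a log axis, over the 7 groups. Day 6 replicate 1 (53.8 CPM), day 10 replicate 6 (158 CPM) and CD48+ HPC replicate 3 (98.3 CPM) stand above the rest of their groups in H2-Aa, while H2-DMa and Ciita are low in all 4 cultured libraries.

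Other genes of the pathways moved at day 6 as well. Of 14 tested other class I heavy chain genes, 9 fell and 1 rose, with a median log2 fold change of -1.03, against -0.04 over all genes. H2-Q7 averaged 73.2 ± 8.36 CPM at day 6 and 213 ± 43.3 CPM in untreated HSCs (SD, n = 4 each). Cd1d1, which presents lipids to NKT cells, averaged 31.8 ± 2.20 CPM at day 6 and 82.5 ± 7.67 CPM in untreated HSCs (SD, n = 4 each). Of 13 genes for peptide supply and loading, 4 rose and 1 fell: the proteasome activator gene Psme2 averaged 102 ± 12.4 CPM at day 6 and 44.9 ± 8.33 CPM in untreated HSCs, while the transporter gene Tap2 fell by 0.43 on the log2 scale. Of 11 promoter factor genes, 4 fell and 3 rose. Those that fell were the RFX subunit genes Rfx5 (log2 fold change -0.72) and Rfxank (-0.84) and the interferon regulatory factor genes Irf1 (-1.10) and Irf2 (-0.64). Those that rose were the NF-Y subunit genes Nfya (log2 fold change 0.24), Nfyb (0.65) and Nfyc (0.33). H2-Ob and H2-Oa, the chains of an inhibitor of class II loading, fell by 1.85 and 1.00 on the log2 scale. The class II processing genes Ifi30 (log2 fold change 2.47) and Lgmn (2.84) were among 5 of 9 that rose, as did 9 of 11 tested macrophage markers.

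At day 10 after 5-FU the mean levels lay close to those of untreated HSCs for class I and were spread widely for class II. Relative to untreated HSCs, edgeR called 0 of 10 members, in a comparison in which 38% of 12886 genes were called, 19.9% higher and 18.1% lower. At an unadjusted p under 0.05 the count was also 0, and DESeq2 called 0.

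H2-K1 ran from 1790.2 to 2716 CPM at day 10 with a median of 2158 CPM, against 2002 to 2305 CPM in untreated HSCs. The day 10 libraries lay on both sides of the untreated range, and the log2 fold change was 0.01 (SE 0.11, edgeR adjusted p = 0.94). H2-D1 ran from 769 to 1230.0 CPM at day 10, median 941 CPM, against 849 to 917 CPM in untreated HSCs, a log2 difference of 0.12 (SE 0.11). B2m ran from 1007 to 2137 CPM at day 10, median 1327 CPM, against 1099 to 1204 CPM in untreated HSCs, a log2 difference of 0.29 (SE 0.16). These ranges overlapped in all 3 genes, with the day 10 spread the wider one.

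Nlrc5 was at 410.2 CPM in the lowest, 500.5 CPM in the median and 1471 CPM in the highest day 10 library, against 478 to 545 CPM in untreated HSCs. The highest was replicate 6, the library with the high interferon-induced genes, and without it the log2 difference of 0.39 (SE 0.29) became -0.0038. Ciita was at 3.91, 7.14 and 83.4 CPM in the lowest, median and highest day 10 library, against 15.4 to 35.2 CPM in untreated HSCs. Replicates 1 to 5 at day 10 were below all untreated ones and replicate 6 was above all of them. The log2 difference of -0.24 (SE 0.73) did not pass, whereas without replicate 6 Ciita fell by 1.67 on the log2 scale and passed, the only member to do so.

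The class II chains and Cd74 followed the same libraries. H2-Aa ran from 13.6 to 158 CPM at day 10 with a median of 28.4 CPM, against 42.9 to 74.6 CPM in untreated HSCs. H2-Ab1 ran from 18.4 to 189.8 CPM, median 39.0 CPM, against 29.5 to 46.7 CPM in untreated HSCs. Cd74 ran from 64.4 to 998 CPM, median 182 CPM, against 139.8 to 225 CPM in untreated HSCs. In all 3 genes replicate 6 was the highest and replicate 4 the next, and replicates 2 and 5 were below every untreated library. H2-Eb1 ran from 4.15 to 64.8 CPM, median 10.4 CPM, against 14.7 to 39.3 CPM in untreated HSCs, and H2-DMa from 95.1 to 205 CPM, median 118 CPM, against 112 to 129 CPM.

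In replicate 6 the interferon-induced genes Gbp2 and Cxcl10 were at 1076 and 500.4 CPM. In the other 5 day 10 libraries Gbp2 was at 48.1 to 109 CPM and Cxcl10 at 5.17 to 118 CPM. The macrophage markers of replicate 6 were within the range of the other day 10 libraries, 89.1 to 259.6 CPM. Its summed B cell markers were the lowest of the 6 at 13.1 CPM. Pax5, a defining transcription factor gene of B cells, was at 0 in all 6 day 10 libraries and so does not set replicate 6 apart. Over all 6 libraries, B cell markers summed to 13.1 to 21.2 CPM at day 10, against 26.4 to 71.1 CPM in untreated HSCs, and dendritic cell markers to 17.8 to 32.7 CPM at day 10, against 38.5 to 70.1 CPM in untreated HSCs. Of 8 erythroid markers 6 fell, with a sum of 299 to 1446 CPM at day 10, against 2413 to 6334 CPM in untreated HSCs, and granulocyte markers summed to 1.10 to 4.19 CPM at day 10, against 4.26 to 1927 CPM in untreated HSCs. The part of the interferon-induced genes and of these markers in the members' levels was not tested. Without the 9 libraries that stood apart, which include 3 of the 6 day 10 libraries, 4 members were lower at day 10 than in untreated HSCs: Ciita (-2.20), H2-Aa (-1.82), H2-Eb1 (-2.32) and Nlrc5 (-0.28, all log2). Of all genes, 1356 were lower in that fit, against 2333 in the main fit. The 3 day 10 libraries left out, replicates 3, 4 and 6, were also the 3 highest at day 10 in H2-Aa, H2-Ab1, H2-Eb1 and Cd74. Replicates 3 and 4 were the highest at day 10 in the macrophage markers Csf1r, Adgre1, Mrc1, C1qb and Vcam1. Csf1r was at 20.8 and 32.3 CPM there, and at 7.27 to 11.5 CPM in the others. In Cd68, replicate 2 (26.7 CPM) lay above replicate 4 (25.1 CPM). The part of the macrophage markers in these levels was not tested.

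Around the members, 11 of 16 tested interferon-induced genes rose at day 10 relative to untreated HSCs, with a median log2 fold change of 1.63. Oas2, an antiviral enzyme gene, averaged 387 ± 272 CPM at day 10 (SD, n = 6) and 54.2 ± 22.9 CPM in untreated HSCs (SD, n = 4). Among 13 peptide supply and loading genes 5 rose, among them Tap1 (log2 fold change 0.84) and Psme2 (0.93), and 4 of 14 other class I heavy chain genes fell, among them H2-Q6 (-0.89) and H2-Q4 (-0.47). Macrophage markers rose as well, in 4 of 11 tested, and summed to 89.1 to 259.6 CPM at day 10, against 43.3 to 62.7 CPM in untreated HSCs.

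**Figure D2:**
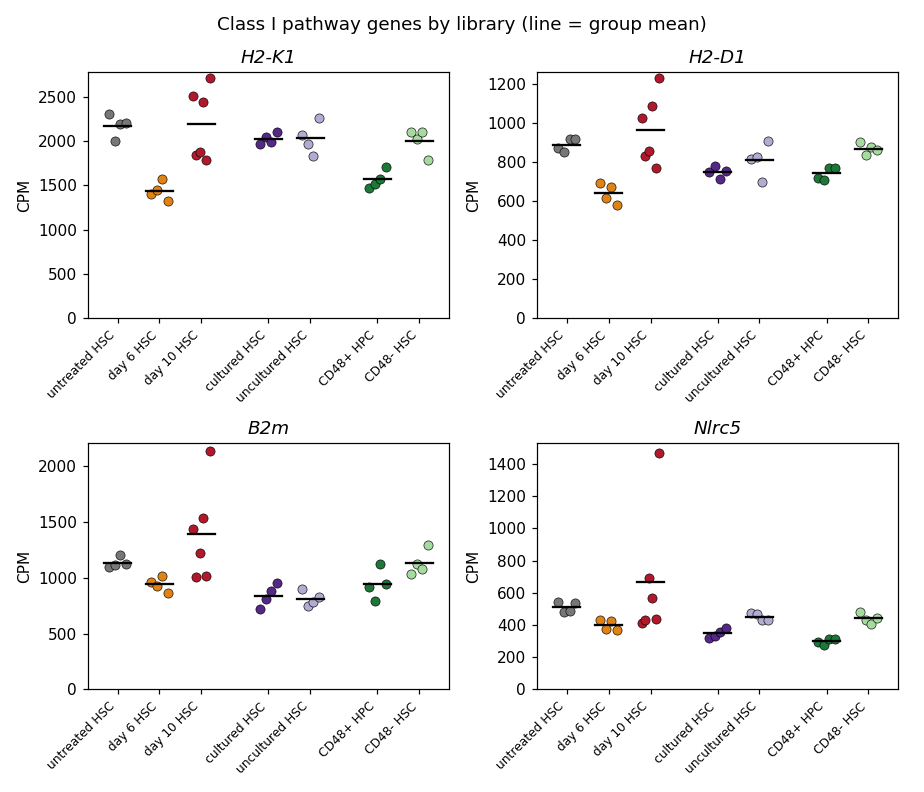
Each point is a library and each line a group mean for H2-K1, H2-D1, B2m and Nlrc5, in CPM on an axis from 0, over the 7 groups. The 4 day 6 libraries lie below the untreated ones in each of the 4 genes, but B2m and Nlrc5 did not pass the test. In that comparison 25.7% of all tested genes were lower, and genes without overlap were not counted. Day 10 replicate 6 is the highest library in each of the 4 genes, at 1471 CPM for Nlrc5.

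Set against day 6, day 10 HSCs had more of the class I transcripts. Of the 10 members 4 rose (H2-K1, H2-D1, B2m and H2-DMa) and the other 6 did not pass, where 30.6% of 12886 genes were called and 14.7% were higher. This comparison shares its day 6 and day 10 libraries with those above.

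H2-K1 averaged 2197 ± 406 CPM at day 10 (SD, n = 6) and 1437 ± 107 CPM at day 6 (SD, n = 4), and all 6 day 10 libraries were above all day 6 ones. The log2 fold change was 0.61 (SE 0.11, edgeR adjusted p = 0.00114). H2-D1 averaged 966 ± 177 CPM at day 10 and 641 ± 53.3 CPM at day 6, without overlap, a log2 fold change of 0.59 (SE 0.11, edgeR adjusted p = 0.00132). B2m averaged 1392 ± 423 CPM at day 10 and 941 ± 65.0 CPM at day 6, with overlap of the lowest day 10 library, and rose by 0.56 on the log2 scale (SE 0.16, edgeR adjusted p = 0.0169). For B2m the change was 0.37 without day 10 replicate 6 and still passed. It did not pass without day 6 replicate 4 (0.53), without the 9 libraries (0.32) or in unique exon reads (0.49).

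H2-DMa averaged 129 ± 39.0 CPM at day 10 and 72.6 ± 19.1 CPM at day 6 and rose by 0.82 on the log2 scale (SE 0.20, edgeR adjusted p = 0.0057). All 6 day 10 libraries were above all day 6 ones. In intron reads H2-DMa differed by -0.026 on the log2 scale and did not pass. The log2 differences of the members that did not pass were 1.17 for H2-Aa, 1.42 for H2-Ab1, 1.67 for H2-Eb1, 1.57 for Cd74, 1.28 for Ciita and 0.74 for Nlrc5. With 1 of these libraries left out in turn, 1384 to 1805 of all genes rose, against 1894 in the main fit. Without day 6 replicate 1, 8 members rose. Without day 10 replicate 2, 7 members rose. Beside them 7 of 14 other class I heavy chain genes rose, H2-T23 by 1.28 and H2-Q7 by 1.19 on the log2 scale. Among 11 promoter factor genes 4, Rfx5, Rfxank, Irf1 and Irf2, rose too. Of the 16 tested interferon-induced genes, 14 rose.

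**Figure D3:**
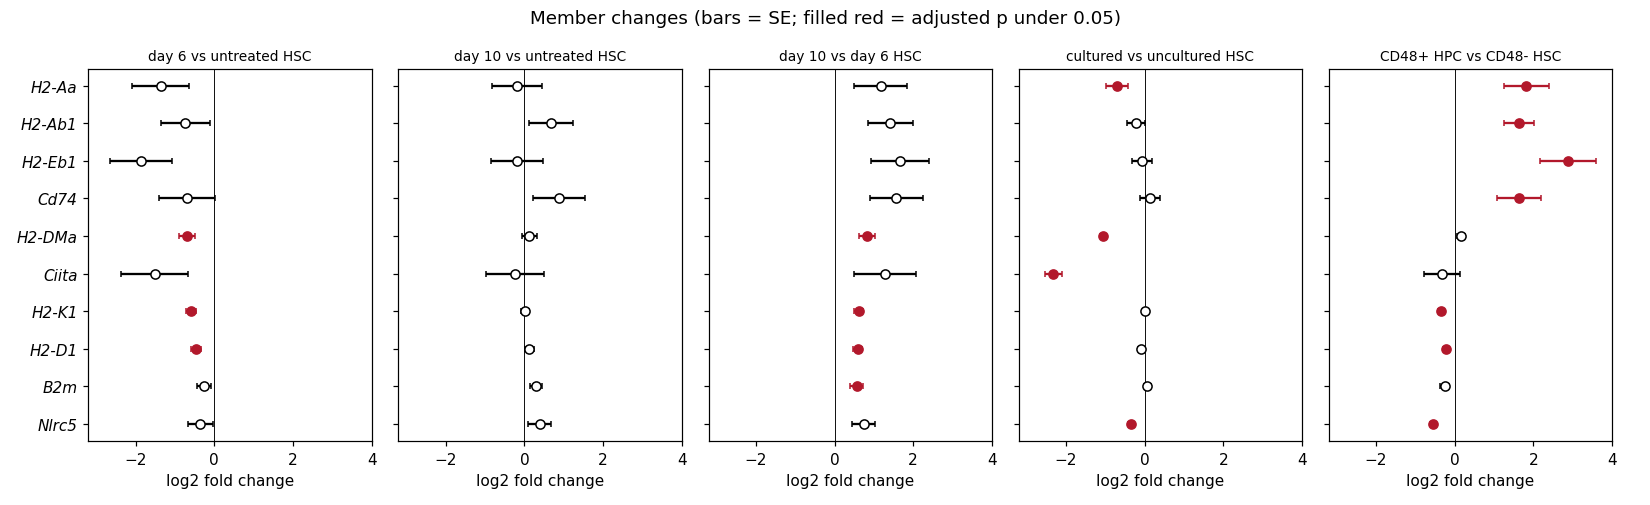
Log2 fold changes of the 10 members in 5 comparisons, with bars for the SE and filled red points for adjusted p under 0.05. Bars are long for the class II chains, Cd74 and Ciita in the 5-FU comparisons (SE 0.73 for H2-Aa at day 6) and short in culture (SE 0.28).

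After 1 day in culture the class II switch and loading genes were lower than in uncultured HSCs, while class I heavy and light chain genes did not pass the test. Of the 10 members 4 fell (Ciita, H2-DMa, Nlrc5 and H2-Aa) and the other 6 did not pass, in a comparison in which 67.6% of 12386 tested genes were called and 33.8% of all tested genes were lower. The members' share was thus near the background.

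Ciita had 4.69, 2.91, 4.69 and 5.11 CPM in cultured HSCs, against 27.2, 20.9, 17.8 and 23.2 CPM in uncultured HSCs. Every cultured library was below every uncultured one, and the log2 fold change was -2.32 (SE 0.22, edgeR adjusted p = 1.22e-06). H2-DMa had 52.2, 56.4, 60.3 and 63.2 CPM in cultured HSCs, against 124, 132, 123 and 111 CPM in uncultured HSCs, and fell by 1.05 on the log2 scale (SE 0.09, edgeR adjusted p = 3.27e-07). In reads on introns, H2-DMa was instead 0.22 higher on the log2 scale, which did not pass.

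H2-Aa had 14.7, 25.2, 36.3 and 33.5 CPM in cultured HSCs, against 61.2, 45.03, 25.3 and 47.8 CPM in uncultured HSCs. The ranges overlapped through uncultured replicate 3, and the log2 fold change was -0.69 (SE 0.28, edgeR adjusted p = 0.0434). Without the 9 libraries it was -0.33 and did not pass. Nor did it pass with DESeq2, in intron reads, or without uncultured replicate 1, 2 or 4 or cultured replicate 1 or 2. The chain genes H2-Ab1 and H2-Eb1 differed by -0.21 (SE 0.22) and -0.07 (SE 0.26) on the log2 scale, and Cd74 by 0.14 (SE 0.26), none of which passed.

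Cd74 had 114, 119, 164 and 160.4 CPM in cultured HSCs, against 146, 141, 55.3 and 173 CPM in uncultured HSCs. The groups overlapped throughout in exon reads, whereas in intron reads Cd74 fell by 2.35 on the log2 scale and passed. Of 6 tested macrophage markers 4 fell in culture and 1 rose. Adgre1, C1qb and Vcam1 were at 0 in all 4 cultured libraries, while Cd68 was at 23.1 to 26.4 CPM in cultured HSCs, against 6.19 to 15.997 CPM in uncultured HSCs, and rose. Csf1r was at 2.07 to 4.798 CPM in cultured HSCs, against 1.27 to 6.23 CPM in uncultured HSCs, and did not pass. The sum of the 12 markers was 25.8 to 31.99 CPM, against 48.8 to 81.8 CPM in uncultured HSCs. B cell markers summed to 8.42 to 10.9 CPM in cultured HSCs, against 15.7 to 31.1 CPM in uncultured HSCs, and dendritic cell markers to 12.3 to 20.7 CPM in cultured HSCs, against 32.7 to 46.6 CPM in uncultured HSCs. Of 5 tested erythroid markers 4 fell, with a sum of 467 to 638 CPM in cultured HSCs, against 72.4 to 4590 CPM in uncultured HSCs, and granulocyte markers summed to 0.690 to 1.89 CPM in cultured HSCs, against 5.63 to 1924 CPM in uncultured HSCs. The 3 class II chain genes summed to 45.6 to 94.0 CPM in cultured HSCs, against 62.4 to 117 CPM in uncultured HSCs. The part of all these markers in the members' changes was not tested.

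Nlrc5 had 320.4, 333, 355 and 379.9 CPM in cultured HSCs, against 472, 469, 432 and 433 CPM in uncultured HSCs. These groups did not overlap, and the log2 fold change was -0.36 (SE 0.07, edgeR adjusted p = 0.000503). In intron reads, which were 57.7% of its reads, Nlrc5 was instead 0.070 higher on the log2 scale and did not pass. H2-K1 averaged 2026 ± 62.1 CPM in cultured and 2039 ± 181 CPM in uncultured HSCs, H2-D1 750.0 ± 28.2 CPM in cultured and 811 ± 87.6 CPM in uncultured HSCs, and B2m 839 ± 98.0 CPM in cultured and 813 ± 62.3 CPM in uncultured HSCs (SD, n = 4 each). The log2 differences of 0.02 for H2-K1 (SE 0.06), -0.09 for H2-D1 (SE 0.07) and 0.07 for B2m (SE 0.08) did not pass. In intron reads H2-K1 fell by 0.97 on the log2 scale and passed.

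Of the 14 tested other class I heavy chain genes, 8 fell in culture. Fcgrt, the neonatal Fc receptor gene, averaged 10.7 ± 1.955 CPM in cultured and 42.8 ± 4.99 CPM in uncultured HSCs, and Cd1d1 24.3 ± 5.51 CPM in cultured and 84.5 ± 7.31 CPM in uncultured HSCs (SD, n = 4 each). H2-T23, which encodes the nonclassical Qa-1 molecule, fell by 1.13 on the log2 scale. Of 13 peptide supply and loading genes 9 rose and 2 fell, with Psme2 up by 1.73 and the chaperone gene Pdia3 by 1.26 on the log2 scale. In culture 5 of 11 promoter factor genes fell, among them Rfx5 (log2 fold change -0.95), Rfxank (-1.22), Irf1 (-1.03) and Irf2 (-0.62), and Nfyc rose (0.34). In culture 8 of 11 interferon receptor and signalling genes fell, including Ifngr1, a receptor chain for interferon gamma (-1.37). H2-Ob and H2-Oa fell by 4.03 and 2.39, with H2-Ob at 0.745 ± 0.415 CPM in cultured and 12.3 ± 4.09 CPM in uncultured HSCs.

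The CD48+ HPCs differed from CD48- HSCs in opposite directions for the classes. Class II chain genes and Cd74 were higher (H2-Aa, H2-Ab1, H2-Eb1 and Cd74, 4 members), Nlrc5, H2-K1 and H2-D1 were lower (3 members), and 3 did not pass, where 26.5% of 12719 genes were called, 14% higher and 12.5% lower.

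H2-Eb1 had 15.9, 11.1, 74.6 and 4.95 CPM in CD48+ HPCs, against 4.48, 2.96, 4.27 and 2.91 CPM in CD48- HSCs. All 4 HPC libraries were above all HSC ones, by a log2 fold change of 2.87 (SE 0.71, edgeR adjusted p = 0.0127). H2-Ab1 had 42.5, 45.8, 128 and 31.6 CPM in CD48+ HPCs, against 25.0, 19.3, 20.6 and 14.7 CPM in CD48- HSCs, and also did not overlap, with a log2 fold change of 1.64 (SE 0.38, edgeR adjusted p = 0.00968). H2-Aa had 29.7, 17.7, 98.3 and 10.1 CPM in CD48+ HPCs, against 12.8, 9.57, 8.54 and 13.6 CPM in CD48- HSCs. HPC replicate 4 lay within the HSC range, and the log2 fold change was 1.82 (SE 0.57, edgeR adjusted p = 0.0357). Cd74 had 142, 114, 483 and 43.1 CPM in CD48+ HPCs, against 88.9, 64.5, 51.8 and 48.4 CPM in CD48- HSCs. Its HPC replicate 4 was below all HSC libraries, and the log2 fold change was 1.63 (SE 0.56, edgeR adjusted p = 0.0492).

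HPC replicate 3, the highest library in all 4 genes, was also the one with 1227 CPM of macrophage markers. Over the 4 HPC libraries, replicates 1 to 4, those markers summed to 456, 349, 1227 and 153 CPM and the 3 class II chain genes to 88.1, 74.6, 301 and 46.7 CPM. CD48- HSC replicate 3 had 325 CPM of the markers and 33.5 CPM of the chains, within the 31.2 to 42.3 CPM of its group. Of 11 tested macrophage markers 6 rose in CD48+ HPCs, 3 of 5 tested erythroid markers fell, and B cell markers summed to 17.99 to 31.1 CPM in CD48+ HPCs, against 12.5 to 21.8 CPM in CD48- HSCs. Granulocyte markers summed to 22.2 to 346 CPM in CD48+ HPCs, against 1.28 to 3.54 CPM in CD48- HSCs. The part of these markers in the class II levels was not tested. Without HPC replicate 3, H2-Ab1 (1.01) and H2-Eb1 (1.55 on the log2 scale) still passed, while H2-Aa (0.80) and Cd74 (0.66) did not. Leaving out any 1 CD48- HSC library, or HPC replicate 1, also left 2 class II members called.

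Ciita did not pass: it had 5.12, 4.67, 14.3 and 2.92 CPM in CD48+ HPCs, against 5.30, 11.1, 10.6 and 6.79 CPM in CD48- HSCs. The log2 difference was -0.32 (SE 0.45, edgeR adjusted p = 0.632), and HPC replicate 3 was again the highest. H2-DMa, at 123 to 155 CPM in CD48+ HPCs and 113 to 135 CPM in CD48- HSCs, differed by 0.15 on the log2 scale (SE 0.10), which did not pass.

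**Figure D4:**
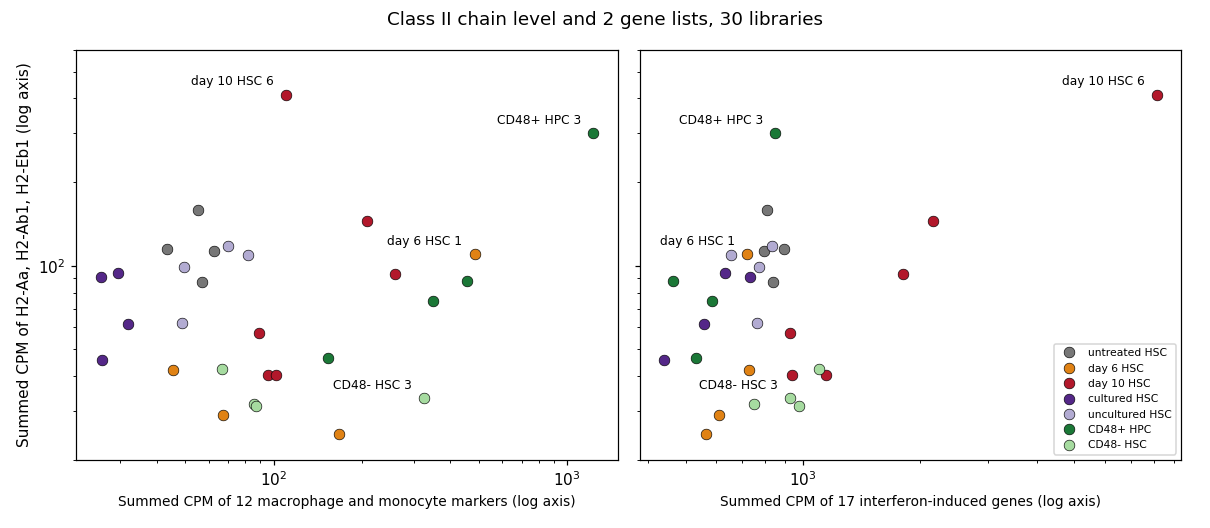
Summed CPM of H2-Aa, H2-Ab1 and H2-Eb1 in each of 30 libraries, against the summed CPM of 12 macrophage and monocyte markers (left) and of 17 interferon-induced genes (right), all on log axes. CD48+ HPC replicate 3 (301 CPM of chains) is the highest in macrophage markers, and day 10 replicate 6 (413 CPM of chains) is the highest in interferon-induced genes.

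Nlrc5 had 296, 275, 309.9 and 312 CPM in CD48+ HPCs, against 480.2, 434, 408 and 441 CPM in CD48- HSCs. The groups did not overlap, and the log2 fold change was -0.56 (SE 0.08, edgeR adjusted p = 0.000838). In intron reads it was -0.35 and did not pass. H2-K1 had 1476, 1518, 1575 and 1713 CPM in CD48+ HPCs, against 2102, 2029.6, 2104 and 1789.6 CPM in CD48- HSCs, without overlap, and fell by 0.35 on the log2 scale (SE 0.08, edgeR adjusted p = 0.00867). H2-D1 had 718, 707, 771 and 771 CPM in CD48+ HPCs, against 901, 838, 876 and 863 CPM in CD48- HSCs, and fell by 0.22 (SE 0.07, edgeR adjusted p = 0.0365). In intron reads neither H2-K1 (-0.30) nor H2-D1 (-0.25) passed. The call of H2-D1 was also lost without any 1 HPC library or without HSC replicate 1 or 3, at -0.24 to -0.20 on the log2 scale. That of H2-K1 was lost without the 9 libraries, at -0.32. B2m averaged 943 ± 134 CPM in CD48+ HPCs and 1134 ± 110.3 CPM in CD48- HSCs (SD, n = 4 each), with overlap, and its log2 difference of -0.26 (SE 0.11) did not pass (edgeR adjusted p = 0.0991).

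In all, 10 of the 14 tested other class I heavy chain genes fell in CD48+ HPCs and 1 rose, with H2-Q7 at 76.5 ± 15.7 CPM in CD48+ HPCs and 141 ± 10.8 CPM in CD48- HSCs (SD, n = 4 each). Among interferon-induced genes 7 of 15 fell, among them Gbp7 (log2 fold change -0.70) and Gbp2 (-0.93). Irf2 fell by 0.60, the only one of 11 promoter factor genes to pass. Among 13 peptide supply and loading genes 4 rose, among them Calr (0.54) and the immunoproteasome gene Psmb8 (0.42). Among 9 class II processing genes 3 rose: the cathepsin gene Ctsd (0.92), the thiol reductase gene Ifi30 (1.59) and the endopeptidase gene Lgmn (1.26), all of which macrophages also express.

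Over the 7 groups, the order of mean levels differed between members. Nlrc5 averaged 668 ± 408 CPM in day 10, 511 ± 33.7 in untreated, 452 ± 22.2 in uncultured, 441 ± 29.8 in CD48-, 399.8 ± 32.1 in day 6 and 347 ± 26.2 in cultured HSCs, and 298 ± 16.8 CPM in CD48+ HPCs. Only untreated and uncultured HSCs, and cultured HSCs and CD48+ HPCs, were neighbours in this order with no overlap of libraries. For H2-K1 the single gap was between CD48- HSCs (2006 ± 149 CPM) and CD48+ HPCs (1570.5 ± 104 CPM). For H2-D1 it was between CD48+ HPCs (742 ± 34.1 CPM) and day 6 HSCs (641 ± 53.3 CPM), and for H2-DMa between untreated (118 ± 7.81 CPM) and day 6 HSCs (72.6 ± 19.1 CPM). Neighbouring groups overlapped throughout for H2-Aa, H2-Ab1, H2-Eb1, Cd74, Ciita and B2m. The groups at the ends were untreated (mean 56.5 CPM) and CD48- HSCs (mean 11.1 CPM) for H2-Aa, and untreated (23.8 ± 9.15 CPM) and cultured HSCs (4.35 ± 0.98 CPM) for Ciita.

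Both day 10 HSC groups were sorted alike, and both untreated HSC groups too. H2-Aa was at 13.6 to 158 CPM in day 10 HSCs of the first experiment and at 8.54 to 13.6 CPM in CD48- HSCs of the third. Ciita was at 15.4 to 35.2 CPM in untreated HSCs and at 17.8 to 27.2 CPM in uncultured HSCs, which overlapped, while B2m, at 1099 to 1204 CPM in untreated and 750.2 to 895 CPM in uncultured HSCs, did not.

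Genes whose library-to-library pattern was most like that of the class II mean (H2-Aa, H2-Ab1, H2-Eb1 and Cd74) were sought among 10201 genes over the 30 libraries, which share the members' depth and scaling. After centring on each experiment's mean, the closest were H2-DMb1 (r = 0.80), which encodes the partner chain of H2-DMa, Pik3ap1 (0.69), Gm1966 (0.65), Irgm1 (0.64) and Grn (0.64). After centring on each group's mean they were Gbp8 (0.86), Gbp6 (0.86), Iigp1 (0.85), H2-DMb1 (0.84) and 4930523C07Rik (0.83). Gbp6, Gbp8 and Iigp1 belong to families of GTPases induced by interferon. Day 10 replicate 6 was the highest of the 30 libraries in the class II chains, the class I sum and the interferon-induced genes. No correlation, for class II or class I, was computed without it. Day 6 replicate 1 and CD48+ HPC replicate 3, also high in class II, had Gbp2 at 53.0 and 39.5 CPM, within the ranges of their groups. For the class I mean (H2-K1, H2-D1 and B2m), centring on experiments gave Shisa5 (0.87), H2-Q7 (0.85), Nfkb2 (0.85), 4930523C07Rik (0.84) and Relb (0.82). Centring on groups gave Ifitm3 (0.85), Ly6e (0.83), Psmb8 (0.81), Gm1966 (0.81) and Serpina3g (0.79). Whether H2-Q7 shares reads with H2-K1 and H2-D1 was not tested, so its likeness to them may include shared reads.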

How the data were processed

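The authors deposited 1 table per library with counts of total exon, unique exon and total intron reads per gene entry, per the file headers, and a TPM column that per the deposited values equals exon reads per exon length scaled to a fixed total. Reads were mapped to mm10, per the submitters' processing notes. The aligner and counter: not given in the sources used here. Entries that share a gene identifier were summed (48737 entries, 46113 genes), with 5208722 to 12243208 exon reads per library. Within each of the 3 experiments 1 model was fitted on counts of total exon reads with edgeR 4.0.16 (R 4.3.3): filterByExpr, TMM scaling, group means, the quasi-likelihood test and Benjamini-Hochberg adjustment over all genes tested, called at an adjusted p under 0.05. The fit was run on simulated counts drawn with each gene's fitted spread. That simulation held no library that stood apart as a whole, so it does not bear on results that rest on such a library. CPM in the text are scaled by TMM over all 30 libraries. DESeq2 1.42.0, other scalings, filters, kinds of read, samples and each library left out in turn were alternatives.

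The members and gene lists were chosen with earlier results of these data known. The text names the 10 members, up to 4 called genes per list and comparison with the smallest p, the 5 genes most alike in pattern, and marker genes beside a result. Exceptions chosen after their values were seen are genes that complete a count of 5 or fewer and genes given for a library that stood apart. Labels do not say whether replicates came from separate animals, so p-values measure the spread between samples, which may be technical. Every pair of replicates differed by more than counting alone gives, with a chi-square of 2.39 to 46.5 for each degree of freedom over 51 pairs. Some genes of the lists are not reported here by name.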

Additional observations from a re-analysis of the deposited data

Results flagged for a closer look

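The 70 sets of a member in a group share their libraries and are not independent. The cutoff's rate of about 1 in 20, for normally distributed values, therefore does not apply to their count. In 11 of the sets, 1 library had a gap to the others that was large for the group's range. In day 6 HSCs it was replicate 1 each time, with H2-Aa at 53.8, H2-Eb1 at 14.96, Cd74 at 251 and Ciita at 19.1 CPM. In day 10 HSCs it was replicate 6, with H2-Aa at 158, H2-Ab1 at 189.8, H2-DMa at 205, Ciita at 83.4 and Nlrc5 at 1471 CPM. In CD48+ HPCs it was replicate 3, with H2-Ab1 at 128 and H2-Eb1 at 74.6 CPM. The first and last of these libraries were the highest of their groups in macrophage markers and the second in interferon-induced genes, and the part of either in the members' levels was not tested.

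The effect of 5-FU on 4 members differed between day 10 and day 6 by the same day 10 against day 6 test as above. In that comparison 14.7% of all tested genes were higher. The log2 fold changes were 0.82 for H2-DMa, 0.61 for H2-K1, 0.59 for H2-D1 and 0.56 for B2m. In intron reads H2-DMa was at -0.026 and did not pass. The B2m call was lost without day 6 replicate 4, without the 9 libraries that stood apart and in unique exon reads.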

How the results depend on the processing

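Leaving out each replicate in turn gave 3 to 5 members lower at day 6 than in untreated HSCs, 0 to 1 lower at day 10 than in untreated HSCs, 3 to 8 higher at day 10 than at day 6, and 3 to 5 lower in cultured HSCs. Over all genes the counts in the same order were 2976 to 3156, 1938 to 2350, 1384 to 1805 and 3956 to 4177. For CD48+ HPCs it gave 2 to 4 members higher and 2 to 3 lower, with 1116 to 1845 genes higher and 1023 to 1651 lower (lowest without HPC replicate 1).

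The fit with replicate number as a block also left out day 10 replicates 5 and 6. In it 7 members were lower at day 6, 1 was lower at day 10 than in untreated HSCs and 2 were higher in CD48+ HPCs. Over all genes that fit moved no count by more than 1.5 times. Samples with the same number did not deviate together (correlations of -0.193 to 0.136 over 20 pairs), so the numbers give no pairing. In the block fit H2-DMa (-0.030) and H2-K1 (-0.0053) at day 10 against untreated were of the other sign. Without day 10 replicate 6 and with no block, both were at -0.050 and 1 member was also lower. The part of the block and that of the libraries left out were not told apart.

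A fit of the compared groups alone gave 8 members lower at day 6, where 25.7% of all tested genes were lower in the main fit. A fit of all 30 libraries gave 2 lower in culture and 1 lower in CD48+ HPCs, with H2-K1 at -0.0095 in culture. H2-Aa, H2-Ab1, H2-Eb1 and H2-D1 have no unique exon reads, and H2-DMa (0.0893% of exon reads) and H2-K1 (0.357%) have few. For these genes a call lost in unique reads cannot be read as a lost change. Unique exon reads gave 0 lower at day 6, 0 higher at day 10 than at day 6, 2 lower in culture, and 1 higher and 1 lower in CD48+ HPCs, with B2m at -0.033 in culture. B2m has 1 entry and 25.0% unique reads, and the cause of its lost call at day 10 against day 6 was not tested. With entries kept as deposited, H2-DMa (-0.11) and H2-K1 (-0.035) at day 10 against untreated, and H2-K1 in culture (-0.064), changed sign.

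Intron reads gave fewer calls: 2153 genes higher and 1910 lower at day 6, 1569 and 1246 at day 10 against untreated, 1153 lower at day 10 against day 6, and 955 higher and 800 lower in CD48+ HPCs. They gave 1 member higher in culture, and 2 higher and 1 lower in CD48+ HPCs. Log2 values of the other sign in intron reads were, at day 10 against untreated, 0.027 for H2-Eb1, -0.46 for H2-DMa, -0.19 for H2-K1 and -0.20 for H2-D1, and -0.026 for H2-DMa against day 6. In culture they were -2.35 for Cd74, 0.22 for H2-DMa, -0.97 for H2-K1 and 0.070 for Nlrc5, and in CD48+ HPCs -0.27 for H2-DMa and 0.68 for Ciita. The cause was not tested.

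Leaving out 9 libraries with high marker or interferon-induced gene levels, a choice made after seeing the data, gave 9 members lower at day 6. At day 10 against untreated it gave 1569 genes higher, 1356 lower and 4 members lower, with H2-Ab1 at -0.66, Cd74 at -0.85, H2-DMa at -0.12, H2-K1 at -0.076 and Nlrc5 at -0.28. It gave 1248 genes lower at day 10 against day 6, and 1020 lower with 2 members higher in CD48+ HPCs. In culture H2-Eb1 was at 0.23 and H2-D1 at 0.012.

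With 1 library left out in turn, the sign of some members turned. The log2 values ran, at day 10 against untreated, from -1.03 to 0.022 for H2-Aa, -0.12 to 0.88 for H2-Ab1, -0.97 to 0.13 for H2-Eb1, -0.050 to 0.21 for H2-DMa, -1.67 to 0.016 for Ciita, -0.050 to 0.073 for H2-K1 and -0.0038 to 0.50 for Nlrc5. For Ciita at day 10 against day 6 they ran from -0.19 to 2.07. In culture they ran from -0.24 to 0.16 for H2-Eb1, -0.12 to 0.32 for Cd74 and -0.032 to 0.073 for H2-K1. Depth limits Ciita and H2-Eb1 most, at 20 and 21 reads in their lowest libraries.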
